A study of Mus musculus with 6 samples.

Results

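B-cells from mouse spleen that had been cultured with LPS were compared with resting B-cells of the same genotype. The libraries were chosen by their labels: 3 LPS columns (wt, Eμ-deficient, 3′RR-deficient) and the 3 matching resting columns, which are 6 of the 6 libraries of the series. The genes described are those whose names do not start with Igh, Igk or Igl, 46569 of the 46963 genes in the table, and 14377 of them had enough counts to be tested. The study asked whether the Eμ enhancer and the 3′ regulatory region (3′RR), both of the immunoglobulin heavy chain locus, act on their own or depend on one another. For this it sequenced total RNA of CD43- splenic B-cells, that is spleen cells depleted of CD43-bearing cells. The wt group is unmodified, the Eμ-deficient group lacks the Eμ enhancer (EμMAR-deficient in the paper's methods), and the 3′RR-deficient group lacks the 3′RR. Each of the 3 genotypes gave 1 library of resting cells without LPS and 1 library of cells stimulated with LPS at 5 µg/ml for 2 days. Mice were male and female, 8 to 12 weeks old by the paper's methods, and the mutants had the same inbred background as the wt mice.

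Some facts on the groups differ between sources. Labels give each library as cells of 2 pooled mice, the paper's methods count 4 mice of each genotype in 2 pools, and a legend counts 3 mice. Whether both libraries of a genotype come from the same mice is not stated. By the labels the resting cells were kept 2 days in medium alone, whereas the methods take them before stimulation, so LPS and culture cannot be told apart. The treatment label gives 5 µg/ml, but the protocol text prints 5 mg/ml.

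LPS, a glycolipid of the outer membrane of Gram-negative bacteria, is sensed on mouse B-cells by Tlr4 and its relative Cd180, whose signals run through Myd88 and Ticam1 to NF-kB. It drives resting B-cells to grow, divide, switch immunoglobulin class, and become antibody-secreting plasmablasts. The last step is organised by Prdm1 (Blimp-1), Irf4 and Xbp1, against Pax5, Bach2 and Bcl6, which hold the B-cell state.

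The gene counts of the resting libraries were 16094475 (wt), 13406257 (Eμ-deficient) and 20780706 (3′RR-deficient), and those of the LPS libraries 21998587, 10936243 and 9111974. Every set of 3 values below follows this order of genotypes, and levels are CPM, gene counts scaled to the effective library size and to 1e6. A change is the log2 fold change of LPS over resting with genotype as block. It is given ± an SE worked back from the change and the F statistic of the fit to 3 pairs. This SE is not the spread of the 3 pair ratios. Adjusted p-values come from the edgeR quasi-likelihood test with Benjamini-Hochberg correction at a threshold of 0.05. With 1 library per genotype and state, a gene's own error is the departure from an equal change in the 3 genotypes (2 residual degrees of freedom), not the spread between mice. The fit draws this error towards that of other genes, which enter with a median of 7.06 prior degrees of freedom. Multi-mapping reads were counted, so levels of close paralogs and pseudogenes are uncertain.

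Outside the immunoglobulin names 2824 genes rose after LPS and 3072 fell, 19.6% and 21.4% of those tested, and 8481 did not pass. The counts of each list below are to be set beside these shares. Among the genes that rose, 2814 moved up in all 3 pairs, 2145 were at least 2-fold and 717 at least 4-fold higher, and the median change was 1.38. Among the genes that fell, 3027 moved down in all 3 pairs, 2561 were at least 2-fold and 1227 at least 4-fold lower, and the median was -1.67. The median over all genes tested was -0.08, and 67.7% of them moved the same way in all 3 pairs. Every LPS library stood above every resting library for 25.3% of genes tested and below for 27.7%. Scaling to spike-in RNA in place of TMM left 1444 genes higher and 2895 lower and moved the median of all genes to -0.29, so each change is relative to the other genes. Relative to gene counts, the spike-in sum changed by 0.79 in the wt, -0.17 in the Eμ-deficient and -3.5e-05 in the 3′RR-deficient pair (log2). This scaling therefore moved the ratios of the wt pair most. Leaving aside cell type markers, most tested members rose under every setting in the lists of DNA replication, mitosis, histones, G1 cyclins with E2F factors, and the synthesis of nucleotides and sterols. In the proteasome, ribosome biogenesis, tRNA synthetases, glycolysis, the secretory path and class switching most rose, but not under spike-in scaling (18 of 38, 12 of 45, 11 of 24, 10 of 24, 21 of 45 and 8 of 31). Glycolysis also lost this majority without the Eμ-deficient pair, and class switching without the Eμ-deficient or 3′RR-deficient pair, under total count scaling and with 10 counts in all 6 libraries. Most members fell under every setting among immediate early factors, quiescence factors and antigen presentation. In the MYC network, homing receptors, marginal zone genes and lysosomes most fell, but not under every setting. Leaving out the Eμ-deficient pair took the genes that fell from 3072 to 1840.

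**Figure D1:**
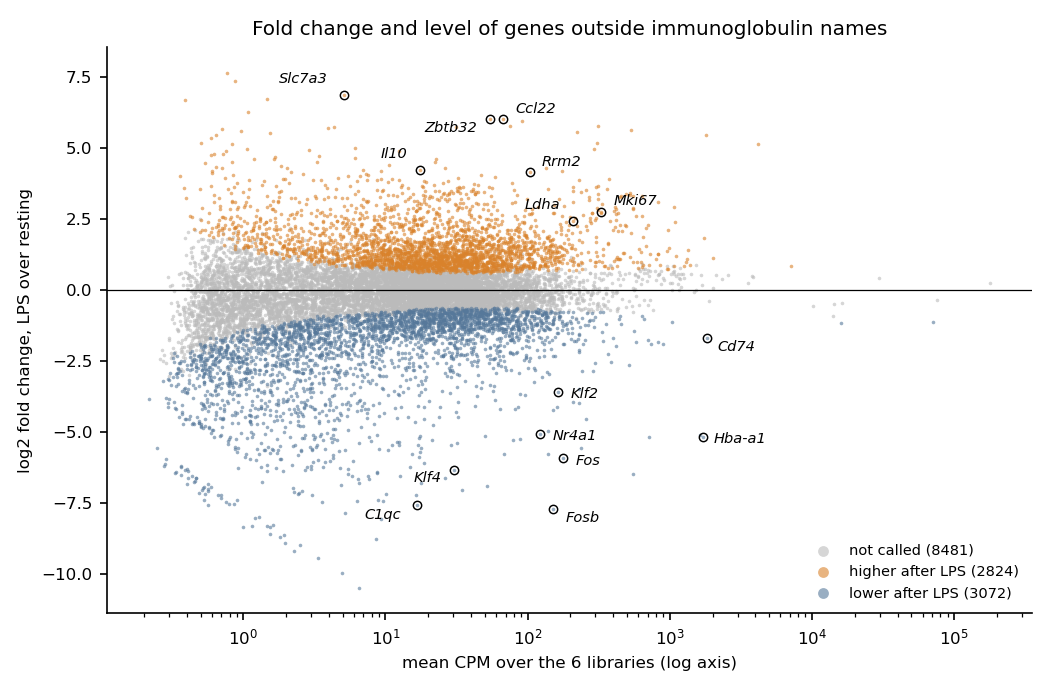
Each point is 1 of the 14377 genes tested outside immunoglobulin names: the log2 fold change of LPS over resting (vertical) against mean CPM over the 6 libraries (horizontal, log axis). Orange points are the 2824 genes that rose, blue points the 3072 that fell and grey points the 8481 that did not pass; circles mark the genes labelled in the plot, from Slc7a3 at 6.86 to Fosb at -7.72.

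The labelled cell type was checked against its defining markers. All 6 libraries held B-cell genes, with Pax5 at 579, 398 and 562 CPM in resting cells and 431, 352 and 450.1 CPM after LPS. The 11 B-cell markers summed to 3653, 2689 and 4100 CPM at rest and 2224, 1980 and 2419 CPM after LPS, with Pax5 the most abundant. Of these 11 markers 6 fell and 0 rose (3 fell without the Eμ-deficient pair). Cd79a, which passes on signals of the B-cell receptor, did not pass the test (adjusted p = 0.076), with 569.8, 271 and 585 CPM at rest and 252, 237 and 349 CPM after LPS. Ms4a1 (CD20) had 339, 443 and 461 CPM at rest and 583, 420.4 and 259.7 CPM after LPS, with the pairs moving in opposite directions. Spn, the gene of CD43 itself, rose by 1.65 ± 0.36, from 14, 10.1 and 17.2 CPM to 20.04, 40.4 and 90.04 CPM.

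Among other blood cells T-cells, NK-cells and myeloid cells carry the CD43 used for the depletion. Many of their markers reached the 10 counts of the filter only at rest, where they were high, so the counts of called markers below are over those with 10 counts in all 6 libraries. Of 21 macrophage and monocyte markers 7 were of this kind, and 5 of the 7 fell, with a median of -1.71. The summed level of the 21 was 289, 915 and 351 CPM at rest and 33.2, 62.6 and 47.9 CPM after LPS, with Lyz2 the most abundant. C1qc, a chain of the complement protein C1q made by macrophages, had 14.5, 59.4 and 25.9 CPM at rest and 0, 0.375 and 0.225 CPM after LPS. Csf1r, the receptor that keeps macrophages alive, fell by 5.38 ± 0.44 on the log2 scale (adjusted p = 8.2e-05). Of 19 erythroid markers 7 had 10 counts in all 6 libraries, of which 6 fell and Tfrc, the transferrin receptor that dividing cells also carry, rose. The list summed to 3443, 20671 and 4009 CPM at rest and to 342, 851 and 317 CPM after LPS. Hba-a1, an alpha globin and the most abundant of them over the 6 libraries, had 1460.4, 6963 and 1544 CPM at rest and 19.3, 254 and 68.1 CPM after LPS. The resting Eμ-deficient library had the highest erythroid and macrophage sums of the 6. Of 16 T-cell markers only 3 had 10 counts in all 6 libraries, and 2 of them fell. Cd4 went from 9.08, 24.2 and 9.19 CPM to 0.0956, 1.69 and 0.561 CPM, and the sum of the list, led by Lck, went from 47.8, 77.6 and 60.2 CPM to 8.32, 28.4 and 19.8 CPM.

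NK-cell markers, none with 10 counts in all 6 libraries, summed to 17.8, 23.5 and 16.6 CPM at rest and 0.53, 20.9 and 1.23 CPM after LPS, with the killing protein Prf1 the most abundant. The high LPS value of the Eμ-deficient library was in Gzmb, a granzyme whose pairs moved by -2.20, 3.45 and -1.29 and which did not pass. Of 15 neutrophil markers none had 10 counts in all 6 libraries, Ly6g was at 0 in each, and the sum, led by Csf3r, went from 9.30, 17.0 and 22.5 CPM to 0.91, 3.75 and 1.80 CPM. Of 12 dendritic cell markers 6 had 10 counts in all 6 libraries and 1 of these fell, and the sum was 668, 636 and 668 CPM at rest and 542, 659 and 879 CPM after LPS. Ly6d was the most abundant of them, and Ly6d, Irf8, Tcf4 and Bst2 are also expressed by B-cells. Siglech, a receptor of plasmacytoid dendritic cells, went from 5.45, 15.1 and 1.56 CPM to 0.191, 1.59 and 0.112 CPM, and Itgax (CD11c) from 35.9, 76.9 and 42.7 CPM to 0.287, 0.562 and 0.786 CPM. Megakaryocyte markers, of which 1 of 10 had 10 counts in all 6 libraries, summed to 29.8, 9.38 and 15.4 CPM at rest and 2.25, 4.40 and 3.37 CPM after LPS, with Itga2b the most abundant. The sum of stromal and endothelial markers, of which 1 of 14 had 10 counts in all 6 libraries, went from 130, 106 and 138 CPM to 52.9, 49.9 and 64.8 CPM, nearly all of it Pecam1, which B-cells also express. Genes at 0 counts in every LPS library allow a bound alone: at a floor of 3 counts per library Sirpb1a, a myeloid receptor, was at least 43.3, 86.1 and 26.4-fold lower. In bulk samples fewer cells of a type and less RNA per cell cannot be told apart, and the part of these cells in the falls described below was not tested.

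**Figure D2:**
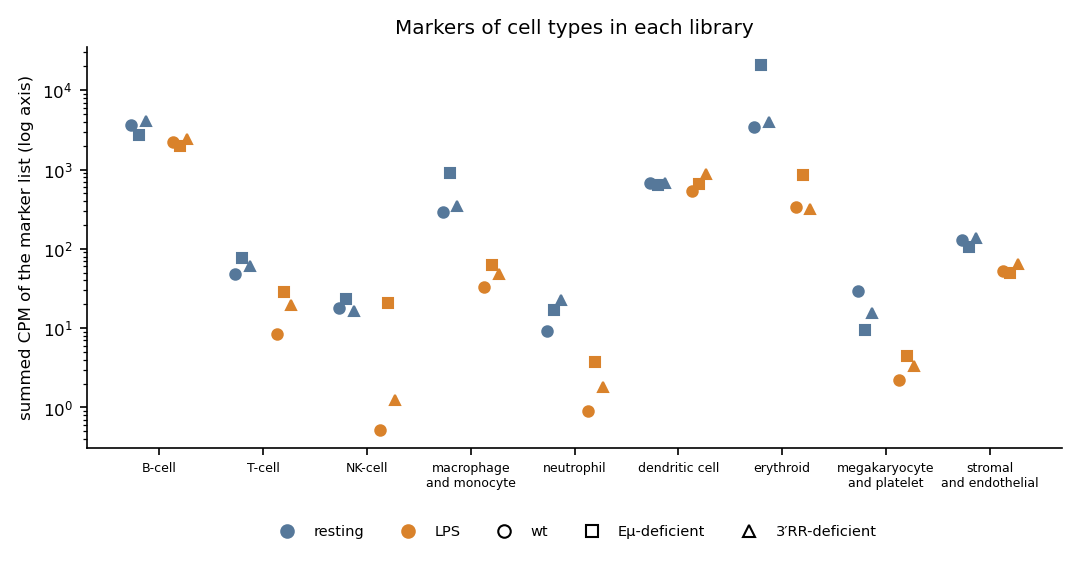
Summed CPM (log axis) of each marker list in the 6 libraries: blue for resting, orange for LPS, with shapes for genotypes. Macrophage sums were 289, 915 and 351 CPM at rest and 33.2, 62.6 and 47.9 CPM after LPS, and the lowest B-cell sum was 1980 CPM.

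Among single genes with a mean of at least 10 CPM in the higher state, the largest fitted rise was in Slc7a3, a cationic amino acid carrier. It had 0, 0.151 and 0.0972 CPM in resting cells, at most 2 counts per library, and 13.1, 8.9 and 8.42 CPM after LPS. With so few counts at rest the size is uncertain: the fitted change was 6.86, and the lower 95% limit of the log2 ratio was 3.99 or more in each pair. Ccl22, a chemokine that draws Ccr4-bearing T-cells, rose by 6.02 ± 0.78, from 1.65, 0.53 and 0.923 CPM to 53, 323 and 21.3 CPM. Its change was 4.87 without the Eμ-deficient, 6.91 without the wt and 6.79 without the 3′RR-deficient pair. The Eμ-deficient library had the most Ccl22 after LPS, and the states did not overlap. Zbtb32, a repressor active in plasmablasts, had 1.6, 1.29 and 1.94 CPM at rest and 80.4, 116 and 122 CPM after LPS, a rise of 6.01 ± 0.30. The other 9 of the 12 largest rises are predicted genes, Gm10717, Gm10719, Gm10718, Gm10721, Gm10801, Gm10722, Gm26870, Gm21738 and Gm10800. These 9 rose by 5.13 to 5.97 (4.54 to 5.28 without the Eμ-deficient and 5.90 to 6.44 without the wt pair). They lie on chromosomes 2, 9 and 14 and share 44.0% to 92.1% of their 25-base words with another of the 9, so reads cannot be placed with certainty. Their summed level was 65.7, 226 and 499 CPM at rest and 876, 19048 and 24411 CPM after LPS. Apart from Fosb, described with the immediate early genes, the 12 largest falls had under 10 counts in every LPS library and passed the filter through the resting ones, so the sizes and order of these falls are uncertain. Fcna, a lectin of macrophages, had 7.04, 32.7 and 11.4 CPM at rest and 0, 0 and 0.112 CPM after LPS. Slc40a1, the iron exporter ferroportin, fell from 9.52, 65.2 and 22.5 CPM to 0, 0.375 and 0.337 CPM. Vcam1, an adhesion molecule, fell from 20.9, 135 and 48.9 CPM to 0.0478, 0.562 and 1.01 CPM. Nlrp3, the inflammasome sensor, fell from 15.1, 29 and 9.19 CPM to 0.0478, 0.281 and 0 CPM, and Havcr2 (TIM-3) from 16.2, 31.7 and 12 CPM to 0.0956, 0.187 and 0.112 CPM. Itgad, Ermap, Aqp1, C1qb, C1qc and Sirpb1a complete the 12.

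Of 29 tested genes of G1 cyclins, E2F and RB factors, 19 rose and 2 fell. Of the 26 with 10 counts in all 6 libraries, 17 rose and 2 fell. Ccnd2, the D cyclin that B-cells use, rose by 3.40 ± 0.28 (adjusted p = 8.2e-05), from 56.2, 47.5 and 58.1 CPM in resting cells to 670.2, 514 and 532 CPM after LPS. Ccnd1 went the other way, with 10.9, 17.6 and 23 CPM at rest and 0.143, 0.0937 and 0.337 CPM after LPS, at most 3 counts per LPS library, and Ccnd3 did not pass (117, 69.5 and 109 CPM against 66.6, 45.4 and 99.6 CPM). Ccne1, the cyclin E partner of Cdk2, rose by 2.88 ± 0.29, and E2f1, which switches on replication genes, by 1.63 ± 0.29. Tfdp1, the DNA-binding partner of the E2F factors, rose from 12.8, 12.4 and 12.6 CPM to 93.7, 76.4 and 135 CPM. E2f8, a repressor among the E2F factors, rose by 2.71 ± 0.33, and Cdc25a, the phosphatase that activates Cdk2, by 2.12 ± 0.23. Cdkn1b (p27), an inhibitor of Cdk2, did not pass, at 88.2, 117 and 106 CPM against 95.3, 89.3 and 49.5 CPM (without the wt pair -0.72, adjusted p = 0.0128). Rbl2 (p130), a pocket protein of resting cells, had 35.9, 27.5 and 33.3 CPM at rest and 21.4, 24.2 and 19.8 CPM after LPS and did not pass (adjusted p = 0.0826).

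In DNA replication 49 of 54 tested genes rose and 0 fell, with a median of 2.23, and the same 54 had a median of 2.31 in the wt, 2.05 in the Eμ-deficient and 2.24 in the 3′RR-deficient pair. In 49 genes every LPS library was above every resting one. Mcm5, a subunit of the replicative helicase, had 43.5, 30.3 and 43.6 CPM at rest and 215, 199.6 and 373 CPM after LPS, a rise of 2.71 ± 0.27 (adjusted p = 1.7e-04). Cdc6, which loads that helicase at origins, rose by 3.59 ± 0.34, from 3.19, 6.88 and 5.73 CPM to 73.7, 57.7 and 53.9 CPM. Rrm2, the subunit of ribonucleotide reductase that is made in S phase, rose by 4.17 ± 0.40 and was the highest of the list, with 5.89, 19.2 and 10.8 CPM at rest and 212, 177 and 194 CPM after LPS. Pcna, the sliding clamp of DNA polymerases, rose by 1.66 ± 0.29, and its lowest LPS library, at 213 CPM, exceeded its highest resting library, at 98.2 CPM. Mcm2 rose by 2.14 ± 0.28, Mcm10 by 3.97 ± 0.29 and Cdc45 by 3.34 ± 0.25, all of the helicase assembly. Tyms, which makes thymidylate, rose by 3.73 ± 0.27. Uhrf1, which brings Dnmt1 to newly copied DNA, rose from 20.5, 17.8 and 25.7 CPM to 230.1, 193 and 343 CPM. The lowest change of the list was in the origin licensing factor Cdt1, at -0.51, which did not pass.

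Promoters of replication genes are shown because many of them are known targets of E2F factors. In the 250 bases before the start, read on both strands, the words TTTGGCGC or TTTCCCGC were found in 7 of 44 DNA replication genes with a promoter in the table (15.9%): Cdc6, Gins3, Mcm5, Mcm6, Mcm7, Orc3 and Pola1. The share was 3.03% of 9440 tested genes and 1.51% of 27025 genes with a promoter. Of the 7, only Orc3 did not pass the test, and 49 of the 54 tested genes of the list rose, so the holders were not set apart. The 150 bases before the start of Cdc6 (chr11:98908001-98908150, plus strand) and Mcm5 (chr8:75109359-75109508, plus strand) from RefSeq, build GRCm38.p6, are printed 5′ to 3′ with the matching word in capitals as it reads on the strand of the gene. A match is a description and does not show that a factor binds.
Cdc6: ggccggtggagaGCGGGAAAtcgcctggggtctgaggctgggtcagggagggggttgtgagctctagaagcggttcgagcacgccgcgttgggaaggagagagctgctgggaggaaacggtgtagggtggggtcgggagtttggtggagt
Mcm5: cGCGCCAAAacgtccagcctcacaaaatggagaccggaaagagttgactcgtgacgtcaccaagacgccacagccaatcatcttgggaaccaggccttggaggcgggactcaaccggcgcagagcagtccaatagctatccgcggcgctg

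Mitosis and spindle genes rose in 47 of 49 tested, and 0 fell. Their median of 3.21 compares with -0.08 for all genes, with pair medians of 3.62, 2.54 and 2.96. Ccnb1, the mitotic cyclin B, had 4.13, 8.93 and 8.36 CPM at rest and 119.8, 82.2 and 129.7 CPM after LPS, a rise of 3.99 ± 0.35 (adjusted p = 1.0e-04). Its partner kinase Cdk1 rose by 3.69 ± 0.31, from 4.18, 9.31 and 6.66 CPM to 87.7, 74.8 and 86.2 CPM. Cdc20, which turns on the anaphase-promoting complex, rose by 4.06 ± 0.29, with 5.17, 3.86 and 5.98 CPM at rest and 60.4, 66.5 and 138 CPM after LPS. In each of these 3 genes the lowest LPS library was above the highest resting library. Mki67, the marker of dividing cells, rose by 2.77 ± 0.32, from 45.9, 140.2 and 85.6 CPM to 475, 623 and 593 CPM, so some was present at rest, with the most in the Eμ-deficient library. The kinases Plk1 and Aurkb rose by 3.51 ± 0.30 and 3.50 ± 0.27. Kif20a, a motor of cell separation, rose by 3.43 ± 0.24, and Spc24, of the kinetochore, by 3.85 ± 0.28. The exceptions were Cenpa, the centromere histone, at 0.15, and Cdc25b, at 0.44, which did not pass.

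Many mitotic genes are known to carry CCAAT boxes and a TTTGAA word (the CHR element) near their start. Both words were found, on either strand, in the 250 bases before the start of 13 of 40 mitosis genes with a promoter (32.5%), beside 5.03% of the 9440 tested genes and 6.45% of all 27025. They were Bub3, Ccnb2, Cdc20, Cdk1, Ect2, Espl1, Kif11, Mki67, Ncapg, Prc1, Smc2, Top2a and Ube2c. All 13 rose, as did 47 of the 49 tested genes of the list, so the rise did not set these holders apart. Alone, CCAAT was in 72.5% of the list and 40.8% of tested genes, and TTTGAA in 35.0% and 13.1%. The 150 bases before the start of Cdc20 (chr4:118437344-118437493, minus strand) and Cdk1 (chr10:69352913-69353062, minus strand), in the same build, show these words in capitals, with CCAAT as ATTGG where it lies on the other strand.
Cdc20: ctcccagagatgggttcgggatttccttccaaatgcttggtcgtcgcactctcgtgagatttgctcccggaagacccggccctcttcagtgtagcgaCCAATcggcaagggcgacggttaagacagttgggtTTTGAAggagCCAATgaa
Cdk1: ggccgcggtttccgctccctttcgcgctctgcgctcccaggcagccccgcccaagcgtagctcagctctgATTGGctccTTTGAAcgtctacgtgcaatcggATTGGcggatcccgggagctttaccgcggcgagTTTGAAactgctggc

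Histone genes whose expression is tied to replication rose in 62 of 64 tested, with a median of 2.84 and pair medians of 3.82, 2.25 and 2.48. Hist1h3g, for histone H3, had 10.6, 29.1 and 18.7 CPM at rest and 359.5, 318 and 315 CPM after LPS, and rose by 4.20 ± 0.37. Hist1h4k, for histone H4, rose by 3.43 ± 0.32 and Hist1h4j by 3.48 ± 0.30. These genes are close copies of each other, so the level of a single one is uncertain. Of 23 genes of DNA methylation and Polycomb repression, 8 rose and 6 fell, the latter near the 21.4% of all tested genes that fell. Dnmt1, which copies methylation to new DNA, rose by 1.75 ± 0.26, from 78.1, 48.3 and 77.4 CPM to 195, 181 and 314 CPM. Ezh2, the Polycomb methyltransferase of dividing cells, rose by 3.11 ± 0.25, with 14.2, 17.8 and 19.1 CPM at rest and 148, 155 and 137 CPM after LPS. Its counterpart in non-dividing cells, Ezh1, fell from 39.8, 36.5 and 41.5 CPM to 15.7, 21 and 26.4 CPM, a change of -0.93 ± 0.24 (adjusted p = 0.100 without the Eμ-deficient pair). Cbx7, a reader of the Polycomb mark, fell by 1.36 ± 0.30 on the log2 scale, and its states overlapped (61.6, 19.7 and 93.2 CPM against 13.4, 10.02 and 49.96 CPM). Without the Eμ-deficient pair 1 member fell in place of 6.

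Factors that keep lymphocytes quiet fell in 20 of 26 tested, and 1 rose. The median was -1.20. Klf2, which holds B-cells and T-cells in quiescence, fell from 306, 169.8 and 432 CPM at rest to 24.7, 13.8 and 38.5 CPM after LPS, a change of -3.58 ± 0.26 (adjusted p = 6.7e-05). Its relatives Klf4 and Klf6 changed by -6.31 ± 0.31 and -3.97 ± 0.32, with Klf4 at 58.8, 58 and 62.7 CPM against 0.574, 0.749 and 1.01 CPM. Tsc22d3 (GILZ), a target of glucocorticoids and FoxO factors, fell from 525, 321 and 541 CPM to 8.89, 9.93 and 9.77 CPM. Btg1, an antiproliferative factor, fell from 790.5, 1031 and 825 CPM to 172, 176 and 89.9 CPM. Foxo1, which is restrained by PI3K signals, changed by -1.34 ± 0.30, and Pik3ip1, an inhibitor of PI3K, by -3.46 ± 0.29. In each of these genes every LPS library was below every resting library. Btg2 changed by -1.05 ± 0.24, with an adjusted p of 0.0085 that was 0.0613 without the 3′RR-deficient and 0.0988 without the Eμ-deficient pair. The member that rose was Slfn2, at 1.20 ± 0.32 (adjusted p = 0.15 without the Eμ-deficient pair), which is known to keep T-cells quiescent.

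In the MYC network 6 of 11 tested genes fell and 1 rose. Myc, a transcription factor of cell growth that is induced early in activation, stood at 194, 139 and 114 CPM at rest and 45.8, 35.5 and 67.8 CPM after LPS and changed by -1.60 ± 0.31 (adjusted p = 0.0038). Every LPS library had less Myc than every resting one. Mxd4 and Mnt, which compete with Myc for its partner Max, changed by -1.37 ± 0.23 and -2.16 ± 0.25, and Mycl by -3.92 ± 0.43. Mxd3, the relative found in S phase, rose by 1.99 ± 0.40.

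Ribosome assembly and tRNA charging are processes that Myc is known to drive. Ribosome biogenesis and RNA polymerase I genes rose in 34 of 45 tested and 0 fell, with a median of 1.18. Ncl (nucleolin) rose by 1.28 ± 0.30, from 375, 458 and 425 CPM to 1245, 786 and 1059.6 CPM. Pno1, which matures the small ribosomal subunit, rose by 2.37 ± 0.25, Dkc1 (dyskerin) by 1.85 ± 0.24 and Nop16 by 2.24 ± 0.23. Fbl, the methylase of ribosomal RNA, had 73.7, 68.8 and 77.9 CPM at rest and 148, 142 and 295 CPM after LPS, without overlap. Aminoacyl-tRNA synthetases, which charge tRNAs, rose in 21 of 24 and 0 fell, with a median of 1.29. Gars rose by 1.84 ± 0.23, Lars by 1.54 ± 0.22 and Tars by 1.70 ± 0.25. Wars rose by 0.89 ± 0.28 (adjusted p = 0.0923 without the 3′RR-deficient and 0.233 without the Eμ-deficient pair). Under spike-in scaling 12 of the ribosome genes and 11 of the synthetases rose.

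Nucleotide and one-carbon synthesis had 25 of 28 tested genes rise, with a median of 1.78. Psat1, of serine synthesis, had 7.87, 5.45 and 11.3 CPM at rest and 89.9, 89.2 and 115 CPM after LPS, a rise of 3.62 ± 0.26 (adjusted p = 6.7e-05). Mthfd2, of the mitochondrial folate cycle, rose by 2.78 ± 0.23, from 9.63, 9.38 and 10.3 CPM to 63.3, 58.9 and 80.5 CPM. Shmt1 and Shmt2, which take one-carbon units from serine, rose by 3.04 ± 0.28 and 2.34 ± 0.30. The first enzymes of pyrimidine and purine synthesis, Cad and Ppat, rose by 1.68 ± 0.33 and 2.11 ± 0.26. The 1 gene that fell was Ctps2, a CTP synthase, at -1.29 ± 0.23. Of 11 polyamine genes 3 rose and 2 fell, near the 19.6% and 21.4% of all tested genes, so the list as a whole did not stand out. Its median of 0.08 ran from -0.13 under spike-in scaling to 0.58 without the Eμ-deficient pair. Srm (spermidine synthase) rose by 3.03 ± 0.30, from 11.1, 9.53 and 10.8 CPM to 66, 63.1 and 151 CPM. Sat1, which starts polyamine breakdown, fell from 113, 231 and 182 CPM to 27.6, 37.8 and 31.7 CPM. Odc1, the first enzyme of the pathway, did not pass, at 102, 238 and 128 CPM against 128, 151 and 191 CPM.

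Of 20 nutrient transporters tested 6 rose and 4 fell (2 fell under spike-in scaling and 1 without the Eμ-deficient pair), beside 19.6% and 21.4% of all tested genes. Of the 17 with 10 counts in all 6 libraries, which leaves out Slc7a3, 4 rose and 5 fell, so with this filter the list did not stand out. Without the wt pair 9 of 20 rose and 3 fell, while 3358 of all 13681 tested genes rose. With the GC trend removed 8 rose and 5 fell, while 3583 of all 14137 tested genes rose. Slc7a5, the large neutral amino acid carrier, rose by 1.80 ± 0.33, from 23.8, 20.6 and 19.9 CPM to 46.4, 71.9 and 124 CPM. Its heavy chain Slc3a2 changed by -0.73 ± 0.26 with an adjusted p of 0.0485, which became 0.461 without the Eμ-deficient and 0.0539 without the wt pair. Tfrc rose by 1.46 ± 0.36 and the lactate carrier Slc16a1 by 1.94 ± 0.33. The glucose carrier Slc2a3 fell from 54.5, 61.4 and 44.3 CPM to 18, 21.4 and 17.6 CPM. Slc2a1 (GLUT1) did not pass, with 52.7, 26.5 and 39.6 CPM at rest and 15.1, 21.1 and 31.9 CPM after LPS (adjusted p = 0.0337 without the 3′RR-deficient pair). Glycolysis and pentose phosphate genes rose in 15 of 24 and 0 fell, with a median of 0.92. Ldha, lactate dehydrogenase, had 67.2, 56.4 and 67.6 CPM at rest and 279, 297 and 476 CPM after LPS, a rise of 2.42 ± 0.27 (adjusted p = 2.9e-04). Pkm, pyruvate kinase, rose by 2.30 ± 0.35, Pgk1 by 2.70 ± 0.26 and the hexokinase Hk2 by 1.38 ± 0.31. G6pdx, the entry to the pentose phosphate path, rose by 0.91 ± 0.24 (adjusted p = 0.107 without the 3′RR-deficient and 0.0901 without the Eμ-deficient pair). None of 12 mitochondrially encoded genes passed, and 0 of 12 had states that did not overlap. Their median was 1.29 in the wt, 0.10 in the Eμ-deficient and -0.56 in the 3′RR-deficient pair (fitted median 0.39, and -0.16 without the wt pair).

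Sterol and fatty acid synthesis rose in 23 of 31 tested genes, with 2 down and a median of 1.52. Sqle, which epoxidises squalene, had 7.04, 7.64 and 8.36 CPM at rest and 63.7, 55.6 and 55.6 CPM after LPS, a rise of 2.92 ± 0.24 (adjusted p = 8.4e-05). Lss, which closes the rings of lanosterol, rose by 2.57 ± 0.24, from 8.36, 7.26 and 10.1 CPM to 47.4, 51.5 and 52.9 CPM. Cyp51, which removes a methyl group from lanosterol, rose by 2.50 ± 0.25, with 14.4, 12.8 and 19.4 CPM against 98.4, 79.8 and 82.4 CPM. The genes that fell export cholesterol: Abca1 went from 146, 64.6 and 118 CPM to 4.4, 12.5 and 6.74 CPM and Abcg1 from 67.8, 45.4 and 61.7 CPM to 14.3, 11.8 and 9.77 CPM. For Sqle, Lss, Cyp51, Abca1 and Abcg1 the states did not overlap. Fasn, the fatty acid synthase, rose by 1.31 ± 0.39 (1.92 without the wt pair), with adjusted p = 0.105 without the 3′RR-deficient and 0.0667 without the Eμ-deficient pair.

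Genes of the endoplasmic reticulum (ER), its secretory path and the unfolded protein response rose in 30 of 45 tested, and 4 fell, with a median of 1.25. Xbp1, the factor that widens the secretory path in plasma cells, had 43.4, 91.3 and 44.7 CPM at rest and 141, 297 and 203 CPM after LPS, a rise of 1.86 ± 0.25 (adjusted p = 6.2e-04). The Eμ-deficient library had the most Xbp1 in both states. Sdf2l1 and Manf, of ER protein folding, rose by 2.69 ± 0.28 and 2.21 ± 0.25, and Ssr2, of the translocon, by 2.22 ± 0.23. Pdia6, a disulfide isomerase, rose by 2.13 ± 0.25, from 59.3, 66.4 and 64.5 CPM to 239, 324 and 273 CPM. Hspa5 (BiP), the main ER chaperone, had 448, 564 and 464 CPM against 699, 801 and 1016 CPM and an adjusted p of 0.0525 (0.0133 without the wt pair). The 4 that fell were Ddit3, Eif2ak3, Dnajb9 and Herpud1. Ddit3 (CHOP), a death-promoting factor, went from 45.3, 57 and 67.1 CPM to 4.59, 9.18 and 8.64 CPM. The stress kinase Eif2ak3 (PERK) changed by -1.30 ± 0.30 and the co-chaperone Dnajb9 by -1.68 ± 0.31. Herpud1, of ER degradation, changed by -0.67 ± 0.23, with adjusted p = 0.176 without the 3′RR-deficient and 0.411 without the Eμ-deficient pair. The ER stress element, CCAAT and CCACG with 9 bases between them, was found on either strand in 9 of 34 ER genes with a promoter (26.5%), beside 0.169% of tested genes and 0.130% of all genes. The 9 were Calr, Canx, Creld2, Derl3, Dnajc3, Hsp90b1, Hspa5, Pdia6 and Syvn1, of which Hspa5 did not pass. Its CCAAT part is the word also searched in mitotic genes. The element is in capitals in the 150 bases before the start of Pdia6 (chr12:17266439-17266588, plus strand, RefSeq, GRCm38.p6).
Pdia6: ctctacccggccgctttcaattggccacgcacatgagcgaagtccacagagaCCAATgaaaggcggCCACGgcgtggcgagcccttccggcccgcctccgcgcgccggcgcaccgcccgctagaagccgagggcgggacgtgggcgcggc

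**Figure D3:**
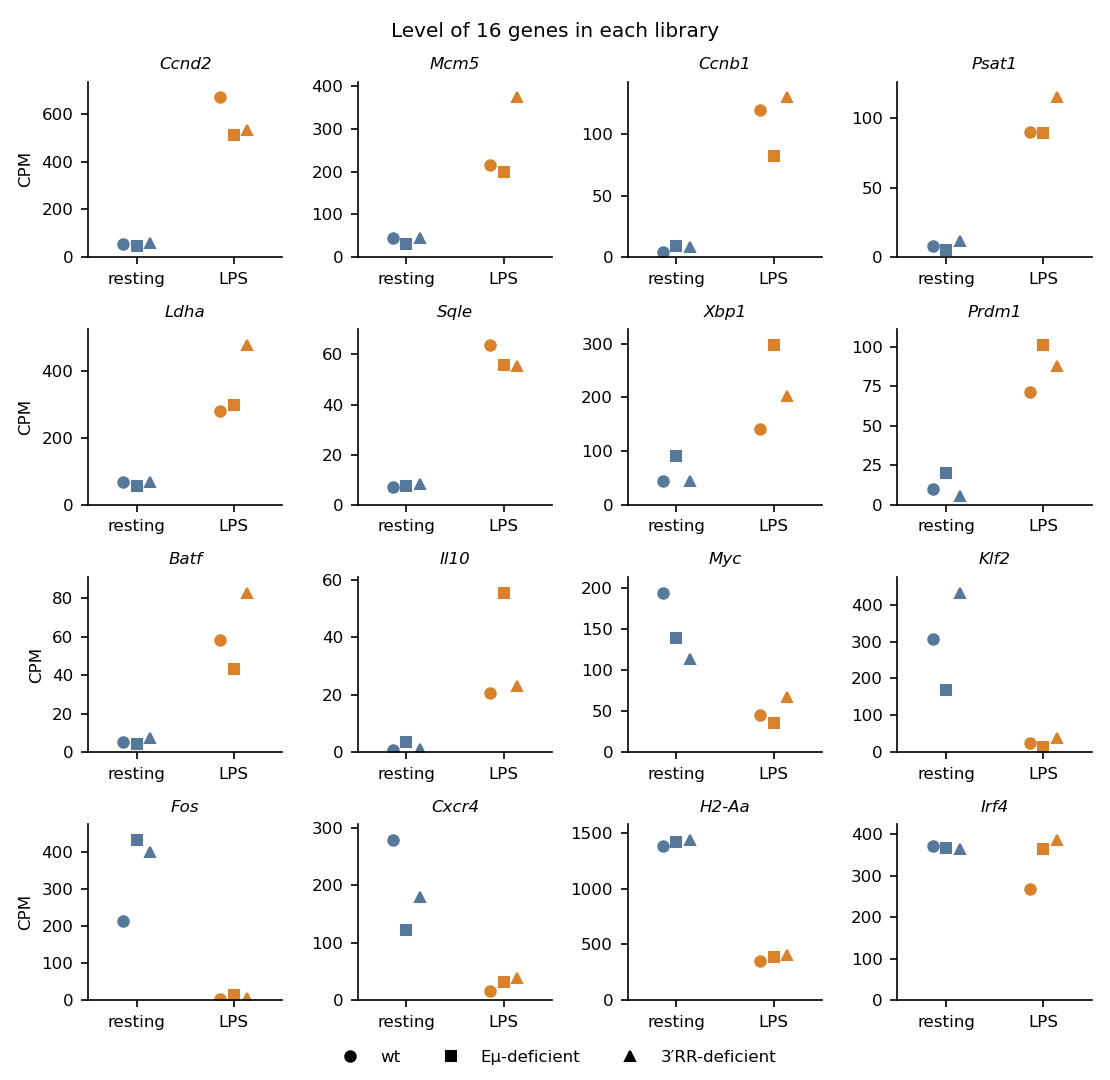
CPM (linear axis from 0) of 16 genes in each library: circles for wt, squares for Eμ-deficient and triangles for 3′RR-deficient, blue at rest and orange after LPS. Ccnd2 is at 56.2, 47.5 and 58.1 CPM at rest and 670.2, 514 and 532 CPM after LPS, Fos at 213, 429.9 and 398 CPM and 2.3, 12.8 and 5.28 CPM, and Irf4 overlaps between states.

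In the plasma cell program 8 of 22 tested genes rose and 2 fell, beside 19.6% and 21.4% of all tested genes. Without the wt pair 12 rose, and without the Eμ-deficient pair 0 fell. Of the 18 with 10 counts in all 6 libraries 7 rose and 1 fell. The pair medians of the list were -0.21, 0.69 and 0.91. Prdm1 (Blimp-1), the factor that sets the antibody-secreting state, rose by 3.04 ± 0.34 (adjusted p = 2.6e-04), from 9.63, 20.3 and 5.69 CPM to 71.5, 101 and 88 CPM. Mzb1, an ER helper of IgM assembly, had 51.5, 91.9 and 71.5 CPM at rest and 238, 402 and 300.3 CPM after LPS. Ell2, which guides processing of the secreted heavy chain mRNA, rose by 1.73 ± 0.23, Fkbp11 by 2.25 ± 0.34 and the receptor Tnfrsf13b (TACI) by 1.57 ± 0.24. Irf4 had 372, 366 and 364 CPM at rest and 268, 365 and 385 CPM after LPS, overlapping and not passing (adjusted p = 0.71). Sdc1 (CD138), the surface marker of plasma cells, did not pass, at 7.98, 19.7 and 5.54 CPM against 5.02, 22.3 and 14 CPM (adjusted p = 0.0406 without the wt pair). Jchain, which links IgM pentamers, had 113, 1734 and 171 CPM against 96.2, 803 and 200.1 CPM, highest in the Eμ-deficient library in both states. Prg2, a granule protein on this list, fell while its states overlapped, with 2.53, 42 and 1.94 CPM at rest and 0.574, 6.37 and 0.898 CPM after LPS (adjusted p = 0.0883 without the Eμ-deficient pair).

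B-cell identity factors fell in 10 of 23 tested, and 2 rose. Without the Eμ-deficient pair 6 fell. Pax5 did not pass (adjusted p = 0.358). Ebf1, which specifies the B lineage, fell from 185, 158 and 183 CPM to 94.1, 76.6 and 65 CPM (adjusted p = 0.0599 without the Eμ-deficient pair). Bcl6, the factor of germinal centre B-cells and an opponent of Prdm1, fell from 31.6, 17.7 and 36.7 CPM to 7.22, 5.71 and 12.6 CPM, a change of -1.77 ± 0.25. Ets1, which restrains plasma cell formation, changed by -1.80 ± 0.27, with 651, 398 and 536 CPM at rest and 154, 138 and 155 CPM after LPS. Bach2, a repressor of Prdm1, did not pass: it had 167, 48.1 and 196 CPM against 82.9, 60.7 and 103 CPM, and the Eμ-deficient pair moved opposite to the other pairs. Zfp318, which permits IgD expression, changed by -1.98 ± 0.27. Id3, an inhibitor of E proteins, rose by 1.32 ± 0.25, while its relative Id2 changed by -1.30 ± 0.25. In B-cell receptor signalling 19 of 38 tested genes fell and 2 rose, with a median of -0.72, and 12 fell without the Eμ-deficient pair. Blk, a Src-family kinase, fell from 214, 201 and 198 CPM to 48.8, 59.2 and 75.8 CPM. Malt1, of the route to NF-kB, changed by -1.41 ± 0.25, and Rasgrp2 by -1.69 ± 0.24. Syk (797, 423 and 734 CPM against 380.0, 333 and 595 CPM) and Btk (68.2, 59.1 and 89.7 CPM against 62.7, 58.7 and 66.2 CPM), the proximal kinases, did not pass. Fcrl5, an inhibitory receptor, rose by 1.04 ± 0.21, with 27.5, 27.6 and 27.6 CPM at rest and 56.4, 56.6 and 56.9 CPM after LPS.

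Homing and adhesion genes fell in 14 of 24 tested (9 without the Eμ-deficient pair), and 1 rose. Of the 22 with 10 counts in all 6 libraries, which leaves out Itgax, 13 fell and 1 rose. S1pr1, the receptor by which lymphocytes leave tissue, had 129.8, 123 and 148 CPM at rest and 15.2, 21.2 and 21.1 CPM after LPS, a change of -2.82 ± 0.25 (adjusted p = 1.0e-04). Cxcr4, the receptor of Cxcl12, fell from 278, 122 and 179 CPM to 16, 30.9 and 38.4 CPM. Ccr7, which leads cells to T-cell zones, fell from 213, 87.3 and 226 CPM to 21.2, 30.4 and 23 CPM. Gpr183 (EBI2), which positions B-cells in the follicle's outer parts, changed by -2.30 ± 0.24, and the cannabinoid receptor Cnr2 by -2.62 ± 0.24. For all of these the states did not overlap. Cxcr5, the follicle receptor, did not pass, at 115, 93.3 and 133 CPM against 79.4, 84.8 and 95 CPM. The gene that rose was Itgb1, an integrin chain, from 37.6, 84.1 and 40.2 CPM to 163, 162 and 89.8 CPM. Marginal zone, follicular and Notch2 genes fell in 10 of 16, and 1 rose. Cr2 (CD21), the complement receptor high on marginal zone cells, fell from 394, 731 and 398 CPM to 109.9, 86.9 and 59.7 CPM. Cd1d1, which presents lipids, changed by -2.55 ± 0.29, and Hes1, a Notch target, by -3.31 ± 0.30. Fcer2a (CD23), of follicular cells, changed by -1.19 ± 0.25, with overlapping states of 119, 64.2 and 226 CPM and 58.3, 34 and 72.6 CPM. Cd24a, a surface glycoprotein, rose by 1.88 ± 0.32. The resting Eμ-deficient library had the highest Cr2, Cd1d1 and Hes1 and the lowest Fcer2a of the resting ones.

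Antigen presentation by MHC class II fell in 16 of 20 tested genes and rose in 0, with a median of -1.66 and pair medians of -1.86, -1.58 and -1.39. H2-Aa, a chain of the class II molecule, had 1383, 1418 and 1436 CPM at rest and 349, 385 and 409 CPM after LPS, a change of -1.89 ± 0.27 (adjusted p = 8.6e-04). Cd74, the invariant chain, fell from 3149, 2520.1 and 2627 CPM to 819.8, 739 and 1019.6 CPM. Ciita, the activator of these genes, fell from 392, 233 and 301 CPM to 61.6, 89.1 and 140.4 CPM. H2-Oa, which tempers peptide loading in B-cells, changed by -2.52 ± 0.23, and H2-DMb1, which loads peptides, by -2.00 ± 0.23. The 3 libraries of each state lay close together for H2-Aa, far from those of the other state. March1, the ligase that turns class II over, changed by -2.24 ± 0.24.

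Among activation and costimulation genes 11 of 25 tested fell and 3 rose, beside 21.4% and 19.6% of all tested genes. Of this list 1 rose without the Eμ-deficient pair or with 10 counts in all 6 libraries, and 5 with the GC trend removed. Cd69, an early activation marker, fell from 137, 209 and 253 CPM to 34.2, 61.7 and 24.7 CPM, a change of -2.36 ± 0.35. Cd86, the costimulatory ligand, fell from 101, 113 and 74.7 CPM to 20.6, 37.8 and 13.8 CPM, and its relative Cd80 did not pass (5.01, 13 and 5.15 CPM against 8.7, 12.6 and 4.83 CPM). Cd274 (PD-L1) changed by -2.50 ± 0.27 and Icosl by -2.42 ± 0.27. Cd40, the receptor of T-cell help, did not pass and had overlapping levels of 49.2, 44.9 and 66.1 CPM and 49.6, 55.3 and 70.5 CPM. Il2ra, the high-affinity chain of the IL-2 receptor, rose by 3.83 ± 0.41 (4.44 without the 3′RR-deficient pair), from 0.66, 1.06 and 2.53 CPM to 12.2, 27.6 and 18.2 CPM. Tnfsf4 (OX40L) had 0.165, 0.227 and 0.0486 CPM at rest and 0.765, 2.44 and 0.449 CPM after LPS. Of the 6 libraries only the wt and Eμ-deficient LPS ones held 10 counts or more of it (16 and 26), so it had no test without either pair.

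In a list of LPS sensing genes 9 of 23 tested fell and 3 rose, beside 21.4% and 19.6% of all tested genes. The list is wider than the sensing of LPS and also holds Tlr3 and Unc93b1. Without the Eμ-deficient pair 4 fell and 1 rose, beside 1840 and 2073 of all 13921 genes tested in that setting. Under spike-in scaling 1 rose. Tlr4 did not pass, with 8.64, 18.5 and 11.3 CPM at rest and 12.8, 13.4 and 7.19 CPM after LPS. Cd180 fell from 104, 144 and 114 CPM to 62.9, 54.2 and 49.2 CPM (adjusted p = 0.137 without the Eμ-deficient pair). Myd88 did not pass, although its states did not overlap, at 18.7, 17.2 and 18.6 CPM against 22.9, 27.9 and 26.3 CPM (adjusted p = 0.0253 without the wt pair). Ticam2 (TRAM), the bridge from Tlr4 to Ticam1, rose by 1.86 ± 0.39, from 1.49, 3.56 and 3.16 CPM to 11, 7.49 and 10.1 CPM. Irak3, a brake on the path, changed by -1.16 ± 0.24, and Tlr3 by -3.12 ± 0.42. Of 23 NF-kB subunits and inhibitors 8 fell and 3 rose, beside 21.4% and 19.6% of all tested genes. Without the Eμ-deficient pair 5 fell and 0 rose. None rose without the 3′RR-deficient pair or under spike-in scaling, and 1 rose under total count scaling or without the block. With the GC trend removed 14 fell. Rel (c-Rel), the subunit that B-cell growth needs, fell from 414, 389 and 359.7 CPM to 114, 126 and 77 CPM, a change of -1.90 ± 0.26. Tnfaip3 (A20), an inhibitor induced by NF-kB, fell from 184, 205 and 199 CPM to 50.3, 56.3 and 59.3 CPM, and Nfkbid changed by -2.47 ± 0.25. Nfkb1 did not pass, at 194, 146 and 158 CPM against 149, 172 and 216 CPM. Nfkbia, the inhibitor IkBα, rose by 0.93 ± 0.28 (adjusted p = 0.204 without the 3′RR-deficient and 0.0932 without the Eμ-deficient pair).

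Immediate early genes, which are induced within minutes of a stimulus, fell in 24 of 25 tested, with a median of -2.96 and pair medians of -3.78, -2.60 and -2.83. Fos had 213, 429.9 and 398 CPM in resting cells and 2.3, 12.8 and 5.28 CPM after LPS, a change of -5.92 ± 0.39 (adjusted p = 6.7e-05). Fosb, its relative, was the largest fall of the list, from 231, 369.8 and 303 CPM to 0.622, 2.9 and 1.35 CPM. Jun, the partner of Fos in AP-1, fell from 264, 548 and 466 CPM to 30.2, 43.4 and 36.8 CPM. All 24 had every LPS library below every resting one. Nr4a1 (Nur77), which reports on receptor signals, fell from 272, 216 and 221 CPM to 5.36, 5.25 and 12.3 CPM. Egr1, a factor of growth signals, changed by -1.74 ± 0.24, Atf3, a stress factor, by -4.19 ± 0.28, and Maff by -5.56 ± 0.31. The exception was Ier3, at -0.65, which did not pass. The wt resting library had the least Fos, Jun and Egr1 of the resting libraries, and the Eμ-deficient library the most.

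Of 26 cytokine and chemokine genes 20 were tested, and 4 rose, a share like the 19.6% of all tested genes, while 7 fell, beside 21.4%. With 10 counts in all 6 libraries 2 of 14 rose and 3 fell, so the list as a whole did not stand out. Il10, an anti-inflammatory cytokine of activated B-cells, had 0.935, 3.71 and 1.12 CPM at rest and 20.7, 55.6 and 23.2 CPM after LPS, a rise of 4.22 ± 0.28 (adjusted p = 6.7e-05). Il6 had 0.275, 0.454 and 0.292 CPM at rest and 4.3, 1.59 and 0.898 CPM after LPS, a change of 2.54 ± 0.61 that rests on 90 and 17 counts in the wt and Eμ-deficient LPS libraries, and it had no test without either pair. Ebi3, a chain of IL-27 and IL-35, rose by 1.55 ± 0.26. Ltb (lymphotoxin beta), which shapes lymphoid tissue, fell from 145, 101 and 162 CPM to 23.8, 22.9 and 43.3 CPM, and Lta changed by -2.20 ± 0.37. Il1b fell from 7.87, 17.4 and 9.82 CPM to 1.1, 4.5 and 0.112 CPM. Tnf did not pass, with 4.95, 8.32 and 4.96 CPM against 8.46, 7.12 and 9.99 CPM.

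Genes of class switch recombination rose in 18 of 31 tested (8 under spike-in scaling and 11 without the Eμ-deficient pair), and 1 fell. Batf, a factor that class switching needs, had 5.23, 4.46 and 7.48 CPM at rest and 58.5, 43.5 and 82.9 CPM after LPS, a rise of 3.41 ± 0.24 (adjusted p = 6.7e-05). Every LPS library stood far above all resting libraries for this gene. Ung, which removes uracil from DNA, rose by 1.21 ± 0.25, and Apex1, which cuts abasic sites, by 2.05 ± 0.24. H2afx, the histone marked at breaks, rose from 46.3, 69.7 and 48.5 CPM to 537, 539 and 917 CPM. Exo1, an exonuclease of mismatch repair, rose by 3.36 ± 0.25, and Xrcc6 (Ku70), of end joining, by 1.47 ± 0.25. Dclre1c (Artemis), a nuclease of end joining, was the gene that fell, from 46.3, 43 and 55.8 CPM to 14.1, 14.5 and 12.6 CPM.

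In the BCL2 family and death receptors 8 of 21 tested genes rose and 2 fell, beside 19.6% and 21.4% of all tested genes. The number that rose was 3 under spike-in scaling, 4 without the Eμ-deficient and 5 without the 3′RR-deficient pair. Bcl2l1 (Bcl-xL), a survival protein, rose by 1.63 ± 0.35 (2.27 without the Eμ-deficient pair). It had 7.81, 31.2 and 7.82 CPM at rest and 31, 46.2 and 40.3 CPM after LPS. The resting Eμ-deficient library overlapped the LPS libraries for this gene. Pmaip1 (Noxa) and Bmf, which promote death, changed by -2.75 ± 0.33 and -1.34 ± 0.23, with Pmaip1 at 51.3, 151 and 97.6 CPM against 14.5, 16.6 and 10.2 CPM. Bcl2 (79.4, 100.2 and 95 CPM against 100.04, 64.5 and 66.9 CPM) and Mcl1 (259.7, 269 and 307 CPM against 348, 319 and 265 CPM), survival proteins, did not pass, though Bcl2 had an adjusted p of 0.0347 without the wt pair. Bcl2l11 (Bim) did not pass, and its pairs moved by -1.78, 0.59 and -0.01. Of 8 GIMAP GTPases, lymphocyte survival factors, only Gimap6 passed, and it fell, beside 21.4% of all tested genes. Gimap6 changed by -0.95 ± 0.26 (adjusted p = 0.139 without the 3′RR-deficient and 0.146 without the Eμ-deficient pair). Gimap3 had 71.4, 53.5 and 96.2 CPM against 99.8, 85.8 and 109 CPM.

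Interferon-stimulated genes did not move as a group. Of 34 tested 7 rose, near the 19.6% of all tested genes, and 2 fell, and the list's median was -0.79 in the wt, 2.27 in the Eμ-deficient and 0.38 in the 3′RR-deficient pair. Isg15, a ubiquitin-like modifier, rose by 2.88 ± 0.27, from 3.25, 7.94 and 4.18 CPM to 17.8, 80.1 and 29.5 CPM. Ifit1, which binds viral RNA, rose by 3.36 ± 0.45 (4.04 without the wt and 2.86 without the Eμ-deficient pair). It had 2.42, 1.36 and 1.12 CPM at rest and 11.2, 34.5 and 11.7 CPM after LPS. The RNA sensor Ifih1 (MDA5) rose by 2.34 ± 0.24. Rsad2 (viperin) fell from 12, 51.8 and 15 CPM to 0.526, 9.93 and 3.7 CPM. Irf7, the main factor of interferon production, had 38.7, 16.9 and 25.5 CPM at rest and 5.36, 77 and 31.4 CPM after LPS, and its pairs moved by -2.85, 2.19 and 0.30. Ifit3 had 11, 5.6 and 6.85 CPM against 3.2, 40.8 and 11.6 CPM. So the Eμ-deficient LPS library was the highest for each of these 4: Isg15, Ifit1, Irf7 and Ifit3. Without the wt pair 25 of the list rose, with Irf7 at 1.27 (adjusted p = 0.00336) and Ifit3 at 1.84 (adjusted p = 6.1e-04). Without the Eμ-deficient pair the list's fitted median went from 0.66 to -0.21, and with no filter on low counts 14 rose.

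**Figure D4:**
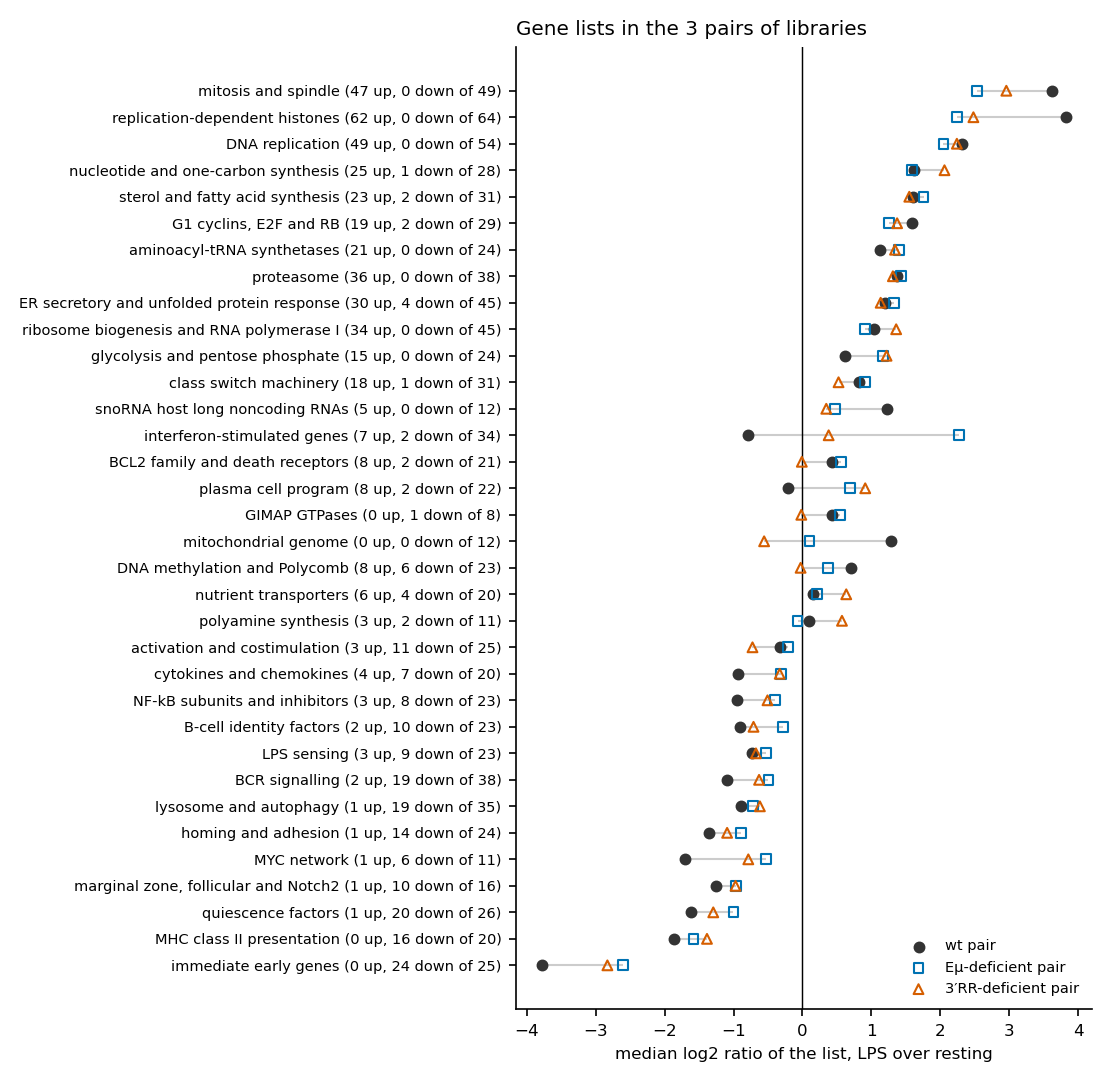
Median log2 ratio of LPS over resting for each gene list in the wt, Eμ-deficient and 3′RR-deficient pair. Mitosis is at 3.62, 2.54 and 2.96 and immediate early genes at -3.78, -2.60 and -2.83, while interferon-stimulated genes are spread from -0.79 to 2.27.

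Proteasome subunits rose in 36 of 38 tested and 0 fell, with a median of 1.29 and pair medians of 1.38, 1.43 and 1.31. Psma6, of the core's outer ring, rose by 2.11 ± 0.25, from 26.6, 31.5 and 34.1 CPM to 149, 134 and 115 CPM. Psmb5, a catalytic subunit, rose by 2.01 ± 0.22, and Psmd7, of the lid, by 1.90 ± 0.22. Psmb8, a catalytic subunit of the immunoproteasome, rose by 1.12 ± 0.26 (adjusted p = 0.105 without the Eμ-deficient pair). Under spike-in scaling 18 rose. Lysosome and autophagy genes fell in 19 of 35 (12 without the Eμ-deficient pair), and 1 rose. Map1lc3b (LC3B), the autophagosome protein, fell from 115, 110.1 and 128 CPM to 25.5, 38.9 and 42.1 CPM. Sqstm1 (p62), a cargo receptor, changed by -1.30 ± 0.25, Ulk1, the kinase that starts autophagy, by -1.15 ± 0.32, and Hexa, a lysosomal hydrolase, by -1.69 ± 0.22. Atp6v1a, of the proton pump, was the gene that rose, at 0.97 ± 0.22. Macrophages, whose summed markers were also lower after LPS, are rich in lysosomes, and their part in this was not tested. Of 12 long noncoding hosts of small nucleolar RNAs 5 rose (3 under spike-in scaling or with 10 counts in all 6 libraries) and 0 fell. Snhg5 rose by 2.18 ± 0.33 and Snhg4 by 1.86 ± 0.32. Gas5, known to build up in growth-arrested cells, rose by 0.99 ± 0.33, with 142, 199 and 248 CPM at rest and 534, 307 and 345 CPM after LPS (adjusted p = 0.0605 without the Eμ-deficient pair).

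The pairs can also be set side by side across all genes. Pearson's r of the log2 ratios was 0.78 between the wt and Eμ-deficient pairs, 0.74 between wt and 3′RR-deficient and 0.81 between Eμ-deficient and 3′RR-deficient, over 14377 genes, which are not independent replicates. In the wt pair 3033 genes were at least 2-fold higher and 3690 at least 2-fold lower, beside 2435 and 2899 in the Eμ-deficient and 2622 and 3054 in the 3′RR-deficient pair. The wt pair had the widest ratios, with a median size of 0.93 on the log2 scale, beside 0.72 and 0.79. Ratios followed the GC content of the genes in the wt pair (Spearman rho across genes -0.26), with a median ratio of 0.49 among genes lowest in GC (1 of 10 bins) and -0.71 among the highest. The 3′RR-deficient pair ran the opposite way (rho 0.14), with medians of -0.50 and 0.07, and the Eμ-deficient pair had a rho of 0.03, with medians of -0.17 and 0.02. The spike-in RNAs moved apart as well, with an SD of their log2 ratios of 0.78 in the wt, 0.13 in the Eμ-deficient and 0.63 in the 3′RR-deficient pair over 35 spike-ins. What set the wt pair apart was not tested.

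**Figure D5:**
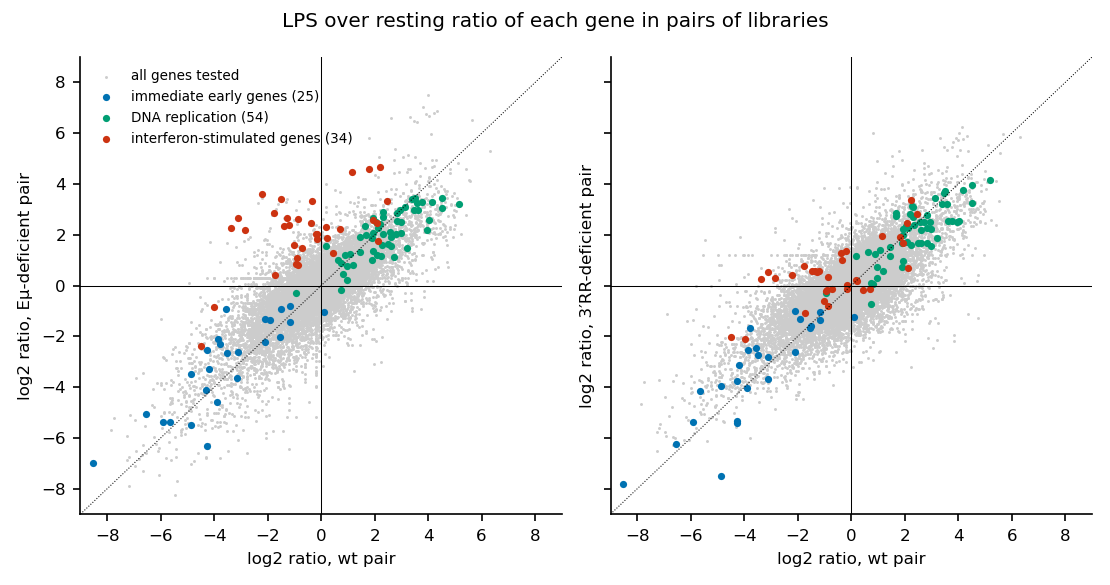
Log2 ratio of LPS over resting of each gene tested in the Eμ-deficient pair (left) and 3′RR-deficient pair (right) against the wt pair; the dotted line marks equal ratios. DNA replication genes (54, green) lie mostly up and immediate early genes (25, blue) mostly down on both axes, while many interferon-stimulated genes (34, red) lie above the line on the left, with medians of -0.79 in the wt and 2.27 in the Eμ-deficient pair.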

How the data were processed

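Total RNA of 6 libraries, 1 per genotype and state, was read as paired 150 nt fragments. The authors aligned reads to mm10 (Ensembl release 77) with STAR 2.4.0a and gave one deposited count per gene name from featureCounts (Subread 1.4.6-p1, strand option 1, primary alignments, multi-mapping reads counted). Mice were of the 129 background. Spike-in names (92, or 4.75% to 7.10% of a library's counts) were left out, as were 394 names starting with Igh, Igk or Igl after the fit, which also drops Ighmbp2. A gene was fitted when 2 or more libraries held 10 counts or more of it (14600 genes), in edgeR 4.0.16 (R 4.3.3; TMM, genotype and state, glmQLFit and glmQLFTest, Benjamini-Hochberg, threshold 0.05). Pair ratios used a floor of 3 counts per library, with exact Clopper-Pearson intervals at 95% (scipy 1.17.1) that cover counting error alone. The steps were tested on simulated data, with changes set among genes with higher counts. There 27% of 2-fold and 96% of 4-fold changes were called, so a gene that did not pass may still have changed. Members and lists were chosen with earlier results of these data known. Named genes were the 12 largest rises and falls that moved alike in 3 pairs with a mean of at least 10 CPM in the higher state, the key genes of each list, and in each list up to 4 further called genes with the smallest adjusted p and up to 4 called against the majority; not all of them are described. Alternatives were total count, DESeq2 1.42.0 size factors, TMM without immunoglobulin genes, spike-in scaling, no filter, 10 counts in all 6 libraries, no replicate block, each pair left out, GC offsets (loess span 0.3) with the block, the DESeq2 Wald test and, chosen after seeing the data, leaving out ribosomal and abundant small RNAs. Gene models for chromosome and GC content came from GENCODE M21, and promoters from RefSeq GRCm38.p6. Promoters printed were chosen among named genes that rose and held the words in the last 150 bases, by smallest adjusted p. Scripts ran in Python 3.11.15 with matplotlib 3.10.9.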

Additional observations from a re-analysis of the deposited data

Results flagged for a closer look

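Each genotype gave 1 pair of libraries, so differences between genotypes were not tested. The values here are spans, the highest minus the lowest log2 ratio of LPS over resting among the 3 pairs, for a set of key genes and for lists whose pairs did not all move in 1 direction. Among interferon-stimulated genes Irf7 spanned 5.04, with -2.85 in the wt, 2.19 in the Eμ-deficient and 0.30 in the 3′RR-deficient pair. Ifit3 spanned 4.65. The median of the whole list spanned 3.06.

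Among genes of the plasma cell and B-cell states, Sdc1 spanned 2.01, Jchain 1.34, Bach2 1.35, Irf4 0.55 and Ms4a1 1.61, and the median of the plasma cell list 1.12. For survival and death, Bcl2l11 spanned 2.37, Bcl2 0.97 and Mcl1 0.63, with 0.57 for the median of the BCL2 family list and 0.56 for the GIMAP list. In the sensing of LPS, Tlr4 spanned 1.21 and Nfkb1 0.83. Cdkn1b spanned 1.22. Odc1 spanned 1.23 and the polyamine list median 0.64. Mitochondrially encoded mt-Nd1 spanned 1.48 and mt-Co1 1.32, and the median over that genome 1.85, with the wt pair highest and the 3′RR-deficient pair lowest. The median of the DNA methylation and Polycomb list spanned 0.74. Genes on the Y chromosome spanned 1.61 (Eif2s3y), 0.89 (Kdm5d) and 0.90 (Uty).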

How the results depend on the processing

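Of 318 named genes that passed the test, 291 kept their call under spike-in scaling, 297 without the replicate block, 291, 273 and 310 without the 3′RR-deficient, Eμ-deficient and wt pair, and 312 with the DESeq2 Wald test. None of the 318 turned direction in an alternative that tested it, but 72 had no adjusted p with 10 counts in all 6 libraries, 6 without each pair and 1 with the GC trend removed. Irf7, not called, moved from -0.01 to 1.27 without the wt pair and to -1.16 without the Eμ-deficient pair. The median of the dendritic cell list turned to 0.28 with 10 counts in all 6 libraries. Genes higher after LPS numbered 1444 under spike-in scaling in place of 2824, with 33.3% of calls higher in place of 47.9%. Leaving out 1 pair gave 2073 to 3358 genes higher and 1840 to 3225 lower. Without the replicate block 2694 genes were higher and 2717 lower. The cause of these shifts was not tested. Of the genes named above, spike-in scaling ended the calls of Atp6v1a, Fasn, Fbl, Fcrl5, G6pdx, Gas5, Herpud1, Nfkbia, Psmb8, Slc3a2, Slfn2, Ticam1, Ung and Wars. Dropping the block ended those of Bcl2l1, Cbx7, Fasn, Fcer2a, Herpud1, Prg2, Rsad2 and Slc3a2. Genes with few counts in LPS libraries, such as markers of rare cells, are limited by depth.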

Other observations

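Counts of gene classes beyond the lists stand beside the 19.6% of all tested genes that rose and the 21.4% that fell. Of 541 processed pseudogenes tested 149 rose and 34 fell, which multi-mapping reads of their parent genes can add to. Of 274 lincRNAs 27 rose and 71 fell, so the falls were near the share of all genes and the rises below it. Small nucleolar RNAs, 148 tested, rose in 17 and fell in 19, both below the shares of all genes.

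A single small RNA, Rn7sk, which restrains the elongation factor P-TEFb, took 8.74%, 8.33% and 12.3% of gene counts in the resting libraries and 2.15%, 5.82% and 5.90% in the LPS libraries. Ribosomal RNA took 22.3% to 32.3%. Y-linked genes were present in every library: Ddx3y had 95.7, 175 and 104 CPM at rest and 86.4, 66.8 and 35.3 CPM after LPS. It fell by 1.04 ± 0.31 on the log2 scale (adjusted p = 0.0269, and 0.126 without the 3′RR-deficient or 0.223 without the Eμ-deficient pair), and the call also ended without the replicate block. Xist, expressed from the inactive X chromosome of females, had 0, 0.303 and 2.33 CPM at rest and 0.143, 0 and 0.337 CPM after LPS and was not tested. The methods name male and female mice, whereas Xist was at most 2.33 CPM and Ddx3y at least 35.3 CPM in every library.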
